A study of Mus musculus with 7 samples.

Results

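Levels of 10 transcription factor genes of erythroid and blood stem cells were followed in B-cell isolates from mouse spleen: Gata1, Gata2, Tal1, Lyl1, Lmo2, Ldb1, Zfpm1, Gfi1b, Klf1 and Nfe2. They were taken as every probe set, a group of array probes read as 1 value, whose platform annotation names only 1 of these genes, which gave 12 of the 45037 probe sets that are not controls, and 10 of the 18193 genes so named. Gata2 and Zfpm1 have 2 probe sets each and the other genes 1. The transgenic group (TG) has 3 mice carrying an Eµ-driven miR-155 transgene on the FVB strain; Eµ, from the antibody heavy chain locus, works in B-lineage cells. The wild-type group (WT) has 4 mice of the same FVB strain without the transgene. Splenic B cells were separated with a magnetic isolation kit, and the RNA of each sample was hybridised to 1 array. The labels give no age, no sex and no founder line, and nothing in them says whether animals were pooled; the design text counts mice, so each array is taken as 1 mouse. Levels are GCRMA values from the authors, in log2 units, and those at or below 4 count here as not above background. With 3 and 4 arrays, precision is set by the spread between mice. Nothing in the labels says that the RNA was extracted or scanned in batches.

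GATA1 and GATA2 are zinc finger proteins that bind GATA sequences, and TAL1 and LYL1 are basic helix-loop-helix proteins that bind E-box sequences together with an E protein. LMO2 and LDB1 do not bind DNA themselves and join both kinds of factor in one complex, which is known for switching on genes of red cell precursors and of blood stem cells. KLF1, NFE2, GFI1B and the GATA cofactor ZFPM1 (also called FOG1) act with this complex in red cell and platelet precursors. LMO2 and LYL1 are also known from B-lineage cells and LDB1 from many tissues, while GATA1 and KLF1 mark other lineages.

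The sequences below show the microRNA that defines the transgenic group and gene starts that hold a GATA word, for Klf1 and Tal1, which rose in transgenic isolates, and for Gfi1b, which was closest to the threshold among the others. They are credited to RefSeq, build GRCm38.p6. The mature mmu-miR-155-5p, from chr16:84714143-84714165 on the plus strand, is written with its seed, bases 2 to 8, in capitals.
mmu-miR-155-5p: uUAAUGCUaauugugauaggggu

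Promoter windows of 300 bases, 250 before and 50 after a gene's start, were held for 8 of the 10 genes in 12 windows, not for Nfe2 and Lmo2. They were searched on both strands for the GATA words AGATAA or its variant AGATAG, and TGATAA or its variant TGATAG, and for the E-box CANCTG. No match overlaps another in the windows printed here. Of the 32851 windows of all genes in the table, 29.8% hold a GATA word and 51.4% an E-box of this form. Of the 12 windows of the factors, 4 (33.3%), 1 each of Klf1, Tal1, Gfi1b and Ldb1, hold a GATA word and 5 (41.7%) an E-box, and nothing is read from these shares beside those of all windows. The windows of Klf1 (chr8:84901732-84902031, plus strand), Tal1 (chr4:115056176-115056475, plus strand, the upstream one of its pair) and Gfi1b (chr2:28621933-28622232, minus strand) are written on the gene's own strand, with GATA words and E-boxes in capitals.
Klf1: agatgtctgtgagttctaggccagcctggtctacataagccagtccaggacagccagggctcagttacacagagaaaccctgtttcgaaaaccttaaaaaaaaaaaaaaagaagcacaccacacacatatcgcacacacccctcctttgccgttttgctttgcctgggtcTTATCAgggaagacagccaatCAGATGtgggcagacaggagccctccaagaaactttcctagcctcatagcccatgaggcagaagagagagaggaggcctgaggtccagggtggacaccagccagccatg
Tal1: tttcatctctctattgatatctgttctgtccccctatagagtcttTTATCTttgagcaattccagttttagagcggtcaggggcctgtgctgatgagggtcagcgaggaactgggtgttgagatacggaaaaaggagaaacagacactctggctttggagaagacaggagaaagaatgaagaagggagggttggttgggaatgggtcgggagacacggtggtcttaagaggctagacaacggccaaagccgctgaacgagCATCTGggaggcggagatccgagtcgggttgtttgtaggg
Gfi1b: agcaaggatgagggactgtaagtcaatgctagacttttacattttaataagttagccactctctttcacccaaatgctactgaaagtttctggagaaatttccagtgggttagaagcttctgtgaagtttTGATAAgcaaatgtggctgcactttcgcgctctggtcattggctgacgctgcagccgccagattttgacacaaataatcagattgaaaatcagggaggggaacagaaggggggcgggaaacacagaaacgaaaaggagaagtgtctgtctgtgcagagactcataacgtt
In the Klf1 window the GATA word, read as TTATCA, covers bases 171 to 176 and the E-box CAGATG bases 192 to 197. In the Tal1 window they are TTATCT at bases 46 to 51 and CATCTG at bases 261 to 266. The Gfi1b window has TGATAA at bases 131 to 136 and no E-box of this form. The second Tal1 window and the 1 window of Gata1 have neither, and no window of Gata2, Lyl1 or Zfpm1 has a GATA word. Ldb1, which did not rise, has 2 GATA words and 2 E-boxes in a window not printed here. These matches describe the letters of the windows only.

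B cell markers were high on all arrays. All 13 B cell markers measured, among them Pax5, Cd79a and Ms4a1, were above 4 on every array, with a mean level of 13.12, 13.09 and 12.63 on transgenic replicates 1, 2 and 3 and of 13.26 to 13.35 on the wild-type arrays. Markers of other blood cells were also higher on the transgenic arrays: the mean level of 13 granulocyte genes ran between 6.84 and 7.71 in transgenic isolates and between 2.61 and 3.24 in wild-type isolates. Of these genes 10, 8 and 8 were above 4 on transgenic replicates 1, 2 and 3, against 1 on wild-type replicates 1 to 3 and 3 on replicate 4. The 1 gene on wild-type replicates 1 to 3 was Elane, at the same value of 4.17 on each. T cell genes stood apart on transgenic replicate 3, with a mean of 7.35 there, 3.20 and 3.34 on the other transgenic arrays and 2.97 to 3.01 on the wild-type arrays. All 9 were above 4 on that array, and Cd3e, a subunit of the T cell receptor complex, was at the array's lowest value of 2.17 on every other one. In whole isolates, more cells of a type and more RNA per cell cannot be told apart. Xist, the RNA of the silenced X chromosome, was at 13.61 to 13.93 on the transgenic arrays and wild-type replicates 1 and 2, against 2.22 on wild-type replicate 3 and 2.81 on replicate 4. Eif2s3y, a gene of the Y chromosome, was at 9.85 and 11.10 on those 2 arrays and at 2.17 on the rest, so genotype is partly confounded with sex.

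Some of the factors were above background on transgenic arrays alone, and others were high in both genotypes. With limma fitted to the 20994 probe sets that were above 4 on at least 3 of the 7 arrays, p adjusted over all of them and 1 probe set kept for each of 9517 genes, Klf1, Nfe2 and Tal1 rose in transgenic isolates, and Gfi1b, Zfpm1, Lyl1, Lmo2 and Ldb1 did not pass an adjusted p of 0.05. Over all genes, 8.11% passed as higher and 2.56% as lower. Gata1 and Gata2 were not tested, because they did not meet that filter. Of the 8 tested, 4 (Klf1, Nfe2, Tal1 and Gfi1b) met it through the transgenic arrays alone, so that they had to differ to be tested, and nothing is read from the count of 3 beside the background share. On the transgenic arrays 8, 9 and 9 of the 10 genes were above 4, and on each wild-type array 4 were, namely Lyl1, Lmo2, Ldb1 and Zfpm1. For 5 of the 10, Gata1, Klf1, Nfe2, Tal1 and Gfi1b, all transgenic values lay above all wild-type values. Over the genes tested this held for 19.5%, and 29.9% had no overlap in either direction; nothing is read from these shares either, since the filter fixed the pattern for those 4 factors and Gata1 was not tested.

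**Figure D1:**
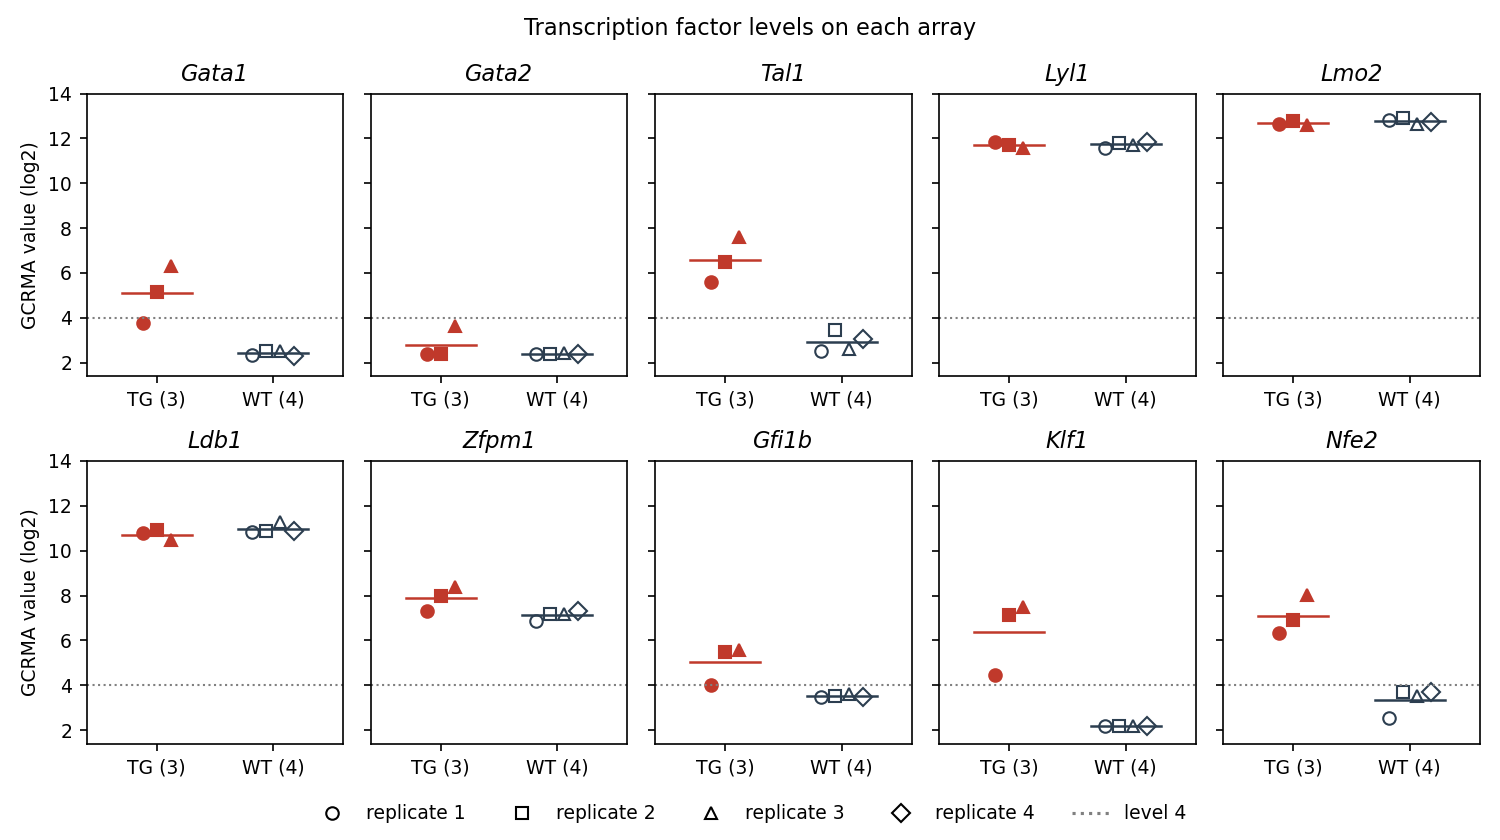
GCRMA values (log2, y axis) of the 10 factors on the 3 transgenic (TG, filled) and 4 wild-type (WT, open) arrays, 1 panel per gene with its tested or else its brightest probe set; symbols mark replicates, horizontal lines group means and the dotted line the level of 4. Klf1, Nfe2, Tal1, Gata1 and Gfi1b lie higher on all TG arrays than on the WT arrays, while Lyl1, Lmo2 and Ldb1 overlap between the groups.

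Klf1 (probe set 1418600_at) encodes the activator that switches on adult beta-globin and many other red cell genes. It was at 4.46, 7.13 and 7.50 on transgenic replicates 1, 2 and 3, and at 2.20 on all 4 wild-type arrays. All 3 transgenic arrays were above background, replicate 1 only just, and none of the wild-type arrays was. The mean was 6.36 ± 1.66 (SD, n = 3) in transgenic arrays against 2.20 in wild type, so the level was at least 5.14-fold higher, counted from the background level of 4. The fitted difference was 4.16 ± 0.69 on the log2 scale (SE, limma adjusted p = 0.0235). With values under 4 set at 4 it was 2.36 and did not pass (limma adjusted p = 0.0821). The call was also lost when any single wild-type array was left out (adjusted p from 0.0602 to 0.0730 with limma) or transgenic replicate 2 was (0.0922).

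Nfe2 (probe set 1452001_at) encodes the large subunit of a dimer with a small MAF protein that drives globin and platelet genes. Its values were 6.32, 6.89 and 8.04 on transgenic arrays 1, 2 and 3, against 2.55, 3.68, 3.52 and 3.68 on wild-type arrays 1 to 4. The groups were 2.64 apart at their nearest arrays, and no wild-type array was above background. Nfe2 was at least 8.49-fold higher in transgenic isolates, with a fitted log2 difference of 3.73 ± 0.46 (SE, limma adjusted p = 0.0126). The call was lost without transgenic replicate 2 (limma adjusted p = 0.0649) and without wild-type replicate 2 (0.0505). Wild-type replicate 1, where Nfe2 was lowest, also had the lowest wild-type value of 12 of the 12 tested platelet genes, and without it the difference was 3.46 (limma adjusted p = 0.0339).

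Tal1 (1449389_at), the helix-loop-helix factor of the complex, was at 5.59, 6.49 and 7.62 on transgenic replicates 1, 2 and 3. On wild-type replicates 1 to 4 it was at 2.52, 3.45, 2.60 and 3.04. Every transgenic array lay above background and every wild-type array below it. Tal1 was at least 5.93-fold higher in transgenic isolates, with a fitted log2 difference of 3.66 ± 0.48 (SE, limma adjusted p = 0.0145). Without transgenic replicate 2 the adjusted p was 0.0716 with limma, and it stayed under 0.05 when any other single array was left out. Lyl1 (1419120_at), a close relative of Tal1, showed no such pattern. It was at 11.82, 11.73 and 11.55 on transgenic arrays, against 11.58, 11.81, 11.70 and 11.83 on wild-type arrays. The fitted difference of Lyl1 was -0.03 with a 95% interval from -0.24 to 0.18 (limma adjusted p = 0.827), and its sign changed with single arrays left out.

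Gata1 (1449232_at), the principal GATA factor of red cell and platelet precursors, was at 3.76, 5.17 and 6.33 on transgenic replicates 1, 2 and 3. On the wild-type arrays it was at 2.34, 2.51, 2.505 and 2.31. The groups did not overlap, but transgenic replicate 1 was under 4, so that Gata1 was above background on 2 of the 3 transgenic arrays and was left out of the test. Counted from 4, its transgenic mean was at least 2.12-fold higher. In a fit with no filter, over 45037 probe sets of which 0.442% passed, the difference of 2.67 had a limma p of 0.00467 and an adjusted p of 0.125. Gata2, the GATA factor of stem cells, mast cells and basophils, was under 4 on every array with both of its probe sets. Its brighter probe set (1450333_a_at) was at 2.38, 2.398 and 3.64 on transgenic arrays and at 2.38 to 2.45 on wild-type arrays, so that only transgenic replicate 3 stood above the others. The other (1428816_a_at) was at 2.21, 2.24 and 2.60 on transgenic arrays and at 2.21 on all wild-type arrays.

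Gfi1b (probe set 1420399_at) encodes a zinc finger repressor that red cell and platelet precursors need. Its values were 4.02, 5.47 and 5.57 on transgenic replicates 1, 2 and 3 and 3.49, 3.51, 3.61 and 3.49 on wild-type replicates 1 to 4. The groups did not overlap, and transgenic replicate 1 lay only 0.42 above the highest wild-type array. The level was at least 2.03-fold higher in transgenic isolates, and the fitted log2 difference of 1.50 ± 0.37 (SE) did not pass by a small margin (limma adjusted p = 0.0521). Without transgenic replicate 1 the difference was 1.998 and passed (limma adjusted p = 0.000609).

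Zfpm1, the cofactor that GATA1 needs at many of its targets, was above background in both groups. Its tested probe set (1451046_at) was at 7.34, 7.999 and 8.39 on transgenic arrays, against 6.86, 7.16, 7.19 and 7.34 on wild-type arrays. Transgenic replicate 1 and wild-type replicate 4 had the same value, so the groups touched. The difference of 0.77 ± 0.25 (SE) did not pass (limma adjusted p = 0.102), with a 95% interval from 0.17 to 1.37. Without transgenic replicate 1 it was 1.06 and passed (limma adjusted p = 0.0278). The second Zfpm1 probe set (1423603_at) was at 2.32 on transgenic replicate 1 and all wild-type arrays and at 2.67 and 2.78 on transgenic replicates 2 and 3, none of them above background.

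The genes of the bridging proteins were at high RNA levels on every array. Lmo2 (1454086_a_at) was at 12.66, 12.78 and 12.60 on transgenic arrays, against 12.80, 12.89, 12.66 and 12.75 on wild-type arrays. Ldb1 (1452024_a_at) was at 10.80, 10.91 and 10.46 on transgenic arrays, against 10.85, 10.88, 11.28 and 10.88 on wild-type arrays. The groups overlapped for both genes. The fitted difference was -0.10 for Lmo2, with a 95% interval from -0.26 to 0.06 (limma adjusted p = 0.357), and -0.25 for Ldb1, with an interval from -0.60 to 0.10 (limma adjusted p = 0.296). These intervals do not reach the differences fitted for Klf1, Nfe2 and Tal1. Those genes had wild-type values under 4 and Lmo2 and Ldb1 high ones, so nothing is read from that contrast.

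**Figure D2:**
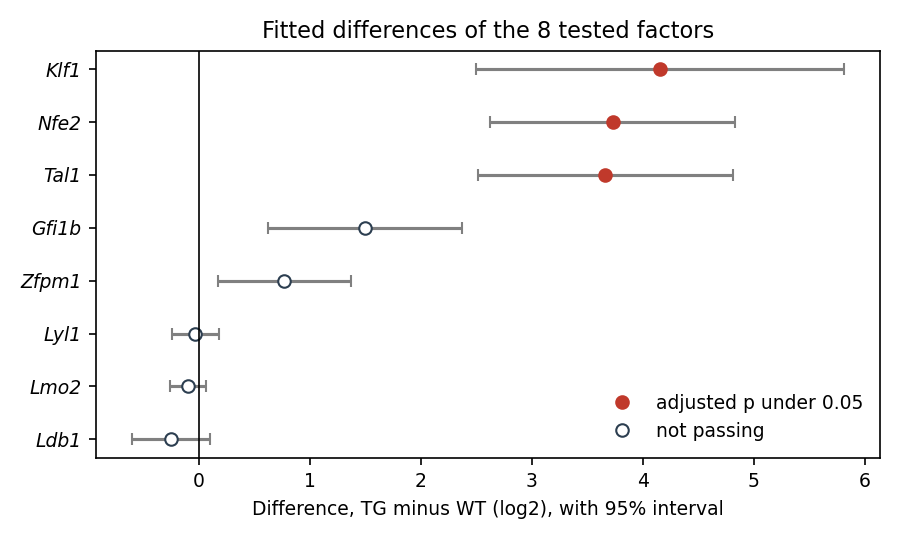
Fitted log2 differences, TG minus WT (x axis), of the 8 tested factors with 95% intervals from limma; filled points passed an adjusted p of 0.05. Klf1, Nfe2 and Tal1 lie between 3.66 and 4.16, Gfi1b and Zfpm1 at 1.50 and 0.77, and Lyl1, Lmo2 and Ldb1 between -0.25 and -0.03.

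The factors differed in how they spread over the transgenic arrays. Within the transgenic group 7 of the 10 genes were highest on replicate 3 and lowest on replicate 1, and Lyl1, Lmo2 and Ldb1 were lowest on replicate 3. Gata2, among the 7, was under 4 on every array. The means of stem, platelet, cell cycle, and macrophage and dendritic cell genes ran in the same order, and those of granulocyte and B cell genes did not. The share of all genes in this order was not counted, so nothing is read from it. Klf1 and Gfi1b were nearly level on replicates 2 and 3, at 4.92 and 5.29 above the wild-type mean for Klf1 and 1.95 and 2.05 for Gfi1b. Tal1 and Nfe2 lay farther apart, at 2.69, 3.59 and 4.71 and at 2.97, 3.54 and 4.69 above it on replicates 1, 2 and 3. Between members, the root mean square difference of the profiles over the 7 arrays, each minus its own mean, was 0.28 for Tal1 and Nfe2, the nearest pair among the factors whose groups did not overlap. It was 0.60 for Klf1 and Tal1 and 0.59 for Gata1 and Tal1. Without transgenic replicate 3, where T cell genes were high, the log2 differences were 3.59 for Klf1, 3.25 for Nfe2 and 3.14 for Tal1, and all 3 passed (limma adjusted p = 0.0425, 0.0133 and 0.0130). Leaving out that array together with wild-type replicate 4, which had the highest wild-type granulocyte mean, Nfe2 and Tal1 passed and Klf1 did not (limma adjusted p = 0.0418, 0.0449 and 0.0964).

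With only the 5 arrays on which Xist was high the differences were 4.16, 3.97 and 3.58 for Klf1, Nfe2 and Tal1, and none of them passed (limma adjusted p = 0.162, 0.118 and 0.132), where 12 of all genes tested did. The sizes were close to those over all arrays, with 2 wild-type arrays fewer. For Klf1 the size could not change, since it was at 2.20 on all 4 wild-type arrays. The wild-type values of Nfe2 and Tal1 were all under 4, so nothing is read from these sizes. With the Xist level as a covariate Nfe2 passed, and Klf1 and Tal1 did not (limma adjusted p = 0.0470, 0.0850 and 0.0659). With no filter on low values Klf1, Nfe2 and Tal1 all failed to pass (limma adjusted p = 0.0900, 0.0587 and 0.0622).

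Among other genes, by the same measure of likeness over the 7 arrays, the profile nearest to Klf1 was that of Hemgn (root mean square difference 0.21), a nuclear protein gene of red cell precursors, followed by Cebpa (0.34), a factor of granulocyte progenitors, and Olfm1 (0.45). Nearest to Tal1 were E2f8 (0.22), the platelet granule gene Thbs1 (0.22) and Tifab (0.28). Nearest to Nfe2 were Lgals1 (0.21), Tifab (0.25) and the chemokine gene Ccl5 (0.28). Gfi1b lay nearest to Tspan33 (0.17), Pid1 (0.19) and Dapk2 (0.21), and Zfpm1 to Cd44 (0.11), Spr (0.12) and the transferrin receptor gene Tfrc (0.12). The flat profiles of Lmo2, Ldb1 and Lyl1 were nearest to Gm19710, Fam118b and Wdr33 (0.03, 0.04 and 0.04).

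Genes that these factors are known to drive in red cells moved in part. Of 35 genes listed, 28 had a probe set of their own and 15 were tested; 5 rose and 10 did not pass, where 8.11% of all genes passed as higher. The median difference of the 15 was 0.28, against 0.00 over all genes tested. The 5 met the filter through the transgenic arrays alone, so that they had to differ to be tested. Nothing is read from the count or the median beside the values of all genes. Car1, the carbonic anhydrase of early red cell precursors, was at 7.04, 9.19 and 10.02 on transgenic arrays and at 2.91 to 2.99 on wild-type arrays, at least 26.9-fold higher (limma adjusted p = 0.00942). The water channel gene Aqp1 was at 7.30, 8.52 and 9.04 on transgenic arrays and at 3.18 to 3.77 on wild-type arrays, at least 19.5-fold higher (limma adjusted p = 0.00543). The other risers were Slc4a1, the anion exchanger band 3, Hemgn and Cldn13, at least 4.96-fold, 4.90-fold and 2.75-fold higher (limma adjusted p = 0.0065, 0.0241 and 0.0262). Hba-a2 and Fech, the enzyme that places iron in heme, did not pass (differences -0.34 and 0.40, limma adjusted p = 0.0980 and 0.114). The count was 2 without transgenic replicate 2, and it was 3 when any one wild-type array was left out.

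Several other red cell genes were not above background. Of the 28 genes, 9 were at or under 4 on every array: Hba-a1, Alas2, Epb42, Sptb, Kel, Epor, Trim10, Icam4 and Tspo2. Alas2, the first enzyme of heme synthesis in red cells, was at 2.17, 3.57 and 2.59 on transgenic arrays and at 2.17 on all wild-type arrays. Rhag and Ermap, named here after their values were seen, were high on 2 of the 3 transgenic arrays. Rhag, a subunit of the Rh complex, was at 2.55, 6.87 and 7.55 on transgenic replicates 1, 2 and 3 and at 2.17 on the wild-type arrays, and Ermap was at 3.11, 6.34 and 7.34 on transgenic arrays and at 2.17 to 2.21 on wild-type arrays. For 9 of the 28 genes all transgenic values exceeded all wild-type values, which held for 19.5% of the genes tested. Nothing is read from this count, since 5 met the filter through the transgenic arrays alone and the others were not tested. For Kel and Rhd the groups were only 0.006 and 0.008 apart, near the floor. Within the transgenic group all 9 genes were lowest on replicate 1, the array where Klf1, Gata1 and Gfi1b were lowest too. Of these genes 8 were highest on replicate 3, and Slc4a1 was highest on replicate 2. How many of all genes ran in this order was not counted.

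**Figure D3:**
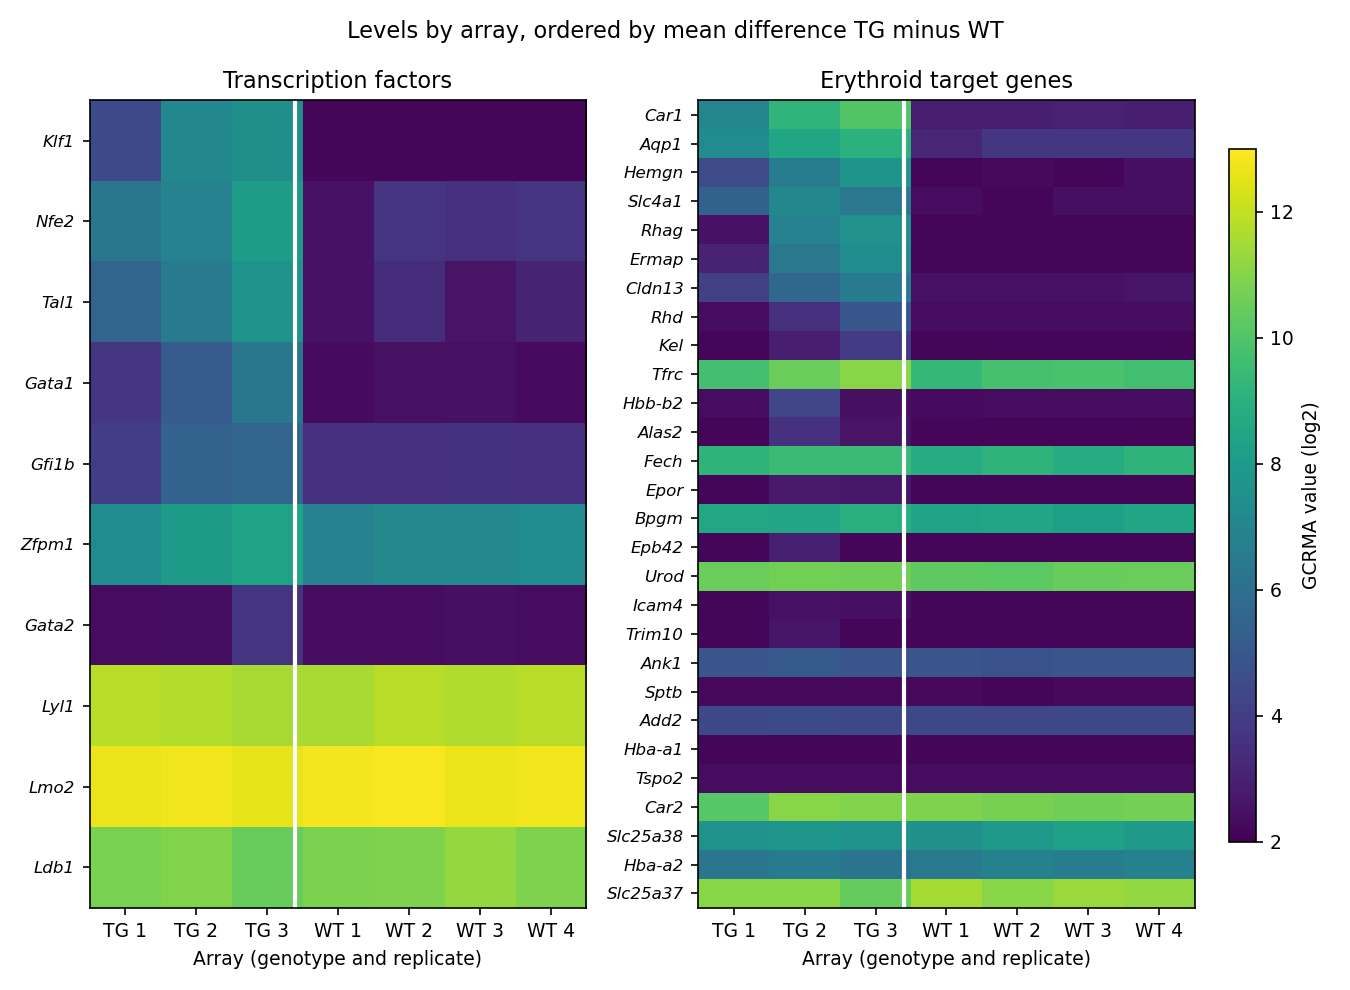
GCRMA values (log2, colour) of the 10 factors and of 28 erythroid target genes (rows, ordered by mean difference) on the 3 TG and 4 WT arrays (columns, split by the white line). Car1 and Aqp1 are bright on all 3 transgenic arrays, and Klf1 and Rhag on transgenic arrays 2 and 3. These genes are dark on the wild-type arrays, and Hba-a1 is dark on every array.

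Of the genes listed as partners of the factors, Ssbp2 and Ssbp4 rose and Rcor1 fell. The list is wider than the complex itself and also holds small MAF and coactivator genes. Of 18 partner genes tested, all above background in both groups, these 3 (16.7%) passed and 15 did not, where 10.7% of all genes passed in either direction, and their median difference was -0.09. Ssbp2 and Ssbp4 encode proteins that bind LDB1 and protect it from degradation. Ssbp2 was at 5.64, 5.89 and 6.94 on transgenic arrays, against 4.12, 4.64, 4.50 and 4.85 on wild-type arrays (difference 1.63 ± 0.33 SE, limma adjusted p = 0.0350). Ssbp4 was at 8.50, 8.49 and 9.06 on transgenic arrays, against 7.50, 7.68, 7.84 and 7.85 on wild-type arrays (difference 0.97 ± 0.17 SE, limma adjusted p = 0.0248). Rcor1, a corepressor that GFI1B recruits, fell by 0.32 (limma adjusted p = 0.0296). The coactivator Crebbp and the E protein gene Tcf12 did not pass (differences -0.29 and -0.18, limma adjusted p = 0.0766 and 0.100). The count was 8 with array weights and 5 with the probe set of smallest p. It was 0 without transgenic replicate 2 or wild-type replicate 1, 2 or 4, and 1 without wild-type replicate 3.

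Relatives in the same gene families did not pass the test. Of 20 genes, 11 were at or under 4 on every array, among them Gata4, Gata5, Gata6, Tal2 and Lmo3, and of the 8 tested 0 passed an adjusted p of 0.05 with limma, while 7 had an unadjusted p under 0.05, and their median difference was -0.37. Gfi1, the paralogue of Gfi1b in granulocytes and lymphocytes, was at 4.84, 5.64 and 8.14 on transgenic arrays. On wild-type arrays it was at 3.28 to 3.85. Counted from 4, its transgenic mean was at least 4.62-fold higher, and the difference did not pass (limma adjusted p = 0.0642). Klf6 differed by -0.36 (limma adjusted p = 0.0526). Gata3, the GATA factor of T cells, named after its value was seen, was at 8.34 on transgenic replicate 3 and at 2.17 on the other arrays.

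Stem and progenitor genes beside the factors moved both ways. Of 11 tested, 5 rose, 1 fell and 5 did not pass, where 8.11% of all genes passed as higher and 2.56% as lower, and their median difference was 1.86. Of the risers 2, Cebpa and Cd34, met the filter through the transgenic arrays alone. Kit, the stem cell factor receptor, and Myb, a progenitor transcription factor, rose by 3.99 and 3.75 on the log2 scale (limma adjusted p = 0.0186 and 0.0215). Flt3, a receptor of lymphoid and myeloid progenitors, rose by 1.86 (limma adjusted p = 0.00271), and Cebpa was at least 4.03-fold higher (0.0176). Cd34 was the other riser, at least 3.54-fold higher, and Hhex, a homeobox gene that B cells also express, fell by 0.49. The stem cell factor genes Hoxa9, Mecom, Erg and Hlf were not above background on any array, and neither was Gata2.

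Platelet genes, which GATA1, NFE2 and GFI1B also serve, were mostly above background in both groups, 12 to 15 of 16 on transgenic arrays and 11 or 12 on wild-type arrays. Of 12 tested, 3 rose and 9 did not pass, where 8.11% of all genes passed as higher, and their median difference was 2.27. Pf4, platelet factor 4, was at 12.03, 12.16 and 12.61 on transgenic arrays, against 7.79, 10.14, 9.49 and 9.62 on wild-type arrays (difference 3.01 ± 0.54 SE, limma adjusted p = 0.0264). Thbs1 and Gp9 rose by 3.88 and 1.85 (limma adjusted p = 0.0135 and 0.0352), and Vwf and Treml1 did not pass (0.0505 and 0.0506). Mast cell, basophil and eosinophil genes, the other users of Gata2, were at or under 4 on every array in 13 of 15 cases, and Il5ra, the 1 tested, did not pass (limma adjusted p = 0.242).

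Levels of other gene lists on the same arrays differed from list to list. The mean of the 10 factors was 6.92, 7.70 and 8.17 on transgenic replicates 1, 2 and 3 and 5.76 to 6.05 on the wild-type arrays. Beside it the erythroid target mean was 5.04, 5.98 and 6.05 on the same transgenic arrays and 4.45 to 4.53 in wild type. The platelet mean was 7.60, 7.72 and 9.01 on transgenic arrays and 5.13 to 6.72 in wild type. The granulocyte mean was highest on transgenic replicate 1 (7.71) and the cell cycle mean on replicate 3 (10.27). Of 13 granulocyte genes 7 were tested, 4 of them through the transgenic arrays alone, and these 7 rose, for example Ctsg, at least 105-fold higher. Of 15 cell cycle genes tested, all of them above 4 on some wild-type array, 14 rose, for example Plk1 by 2.53 on the log2 scale, where 8.11% of all genes passed as higher. Of 6 macrophage and dendritic cell genes tested, 3 rose (Xcr1, tested through the transgenic arrays alone, Itgax and Cd68) and 1, Spic, fell by 0.99, where 10.7% of all genes passed in either direction. Of 13 B cell genes tested 2, Cd72 and Fcer2a, fell by 0.30 and 0.82, where 2.56% of all genes passed as lower, and the median difference of the 13 was -0.30. The fitted difference was below 0 for all 13. Mast cell, basophil and eosinophil genes averaged 2.41 to 2.87 on transgenic arrays and 2.35 to 2.38 on wild-type arrays, and the 2 T cell genes tested, Cd3g and Cd8a, did not pass (limma adjusted p = 0.112 and 0.104, both with an unadjusted p under 0.05). The part of each cell type in the levels of the factors was not tested.

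**Figure D4:**
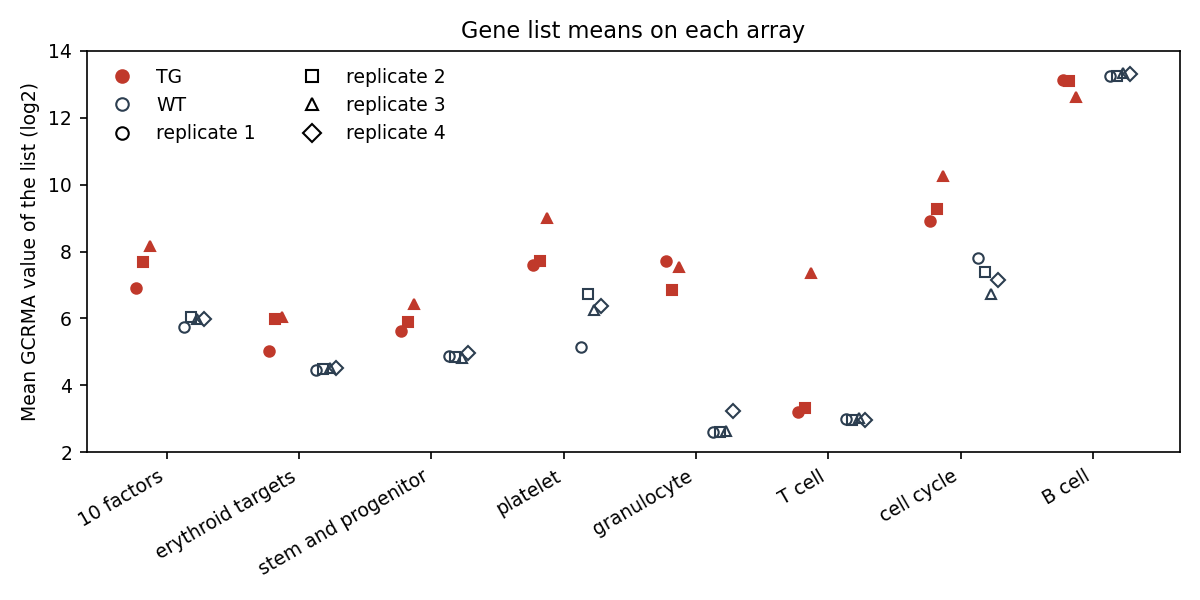
Mean GCRMA value (log2, y axis) of each gene list (x axis) on the TG (filled) and WT (open) arrays, symbols marking replicates. Every list shown except that of B cell genes lies higher on all TG arrays than on the WT arrays. T cell genes reach 7.35 on TG replicate 3 and 3.20 and 3.34 on the other TG arrays, against 2.97 to 3.01 on the WT arrays.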

How the data were processed

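RNA of splenic B cells was measured on one 1-colour array per mouse, 3 transgenic and 4 wild type. The deposited log2 values were computed with GCRMA (per the submitters' processing notes); its version and the genome build are not given in the sources used here. GCRMA leaves dim probe sets at a shared low value, 2.17 for 35.6% to 37.1% of the probe sets on each array, so differences of dim genes are compressed. The share of probe sets above 4 ran from 45.9% to 47.9% over the arrays. Some probe sets repeat a value above 4, such as the erythroid target Add2 at 4.40 on all wild-type arrays. A value above 4 is therefore not always above background. Slides and scan dates were not examined, so batches were not tested.

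Probe sets were named from the platform annotation where it gives 1 gene, and a RefSeq table of GRCm38.p6 changed 0 symbols. Those above 4 on at least 3 of 7 arrays, 20994 of 45037, were fitted with limma 3.58.1 in R 4.3.3 (lmFit, eBayes with an intensity trend) and p was adjusted by Benjamini-Hochberg over all of them; 1949 passed 0.05. A gene was represented by its tested probe set of highest mean, which gave 9517 genes, 1016 of them passing. A gene at or under 4 on every wild-type array is given as at least N-fold, its transgenic mean against 4. The words at least refer only to the wild-type level being at or under 4. They set no lower limit in view of the spread between mice. Named genes were all 10 factors, up to 4 passing and 2 not passing genes of smallest p per list, and the 3 nearest profiles per tested factor, of which the nearest alone is given for the flat ones. Cldn13, Cd34, Hhex, Cd3e, Rhd, Add2 and the genes listed as not above background were named after their values were seen. The factors, lists and alternatives were chosen with earlier results of these data known. The fit was tested on simulated data. Alternatives changed filter, normalization, variance model, array weights, probe set choice, floor, sex covariate and arrays used.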

Additional observations from a re-analysis of the deposited data

Results flagged for a closer look

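In 3 of the 12 probe sets of the factors, 1 of the 4 wild-type arrays lay far from the other 3, by Dixon's ratio of gap to range; chance flags about 1 in 20 such groups of untied values, a rate that does not apply to values tied at the floor. Nfe2 was at 2.55 on wild-type replicate 1 and at 3.52 to 3.68 on the others, with all 4 under the background level of 4. Ldb1 was at 11.28 on wild-type replicate 3 and at 10.85 to 10.88 on the others. The brighter Gata2 probe set was at 2.45 on wild-type replicate 3 and at 2.38 on the others, a gap of 0.07 between values that are all at background. With 3 of its 4 wild-type arrays tied, any other value on the fourth would stand out by this ratio. The cause of these values was not tested.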

How the results depend on the processing

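The 3 calls among the factors, the 5 among erythroid targets, the 3 among partner genes and the 1016 among all genes depend on the settings. With no filter they were 0, 2, 0 and 116, and with array weights 5, 9, 8 and 2763. With the Xist level as a covariate they were 1, 3, 0 and 156, and with only the arrays on which Xist was above 4 they were 0, 0, 0 and 12. Without transgenic replicate 3 and wild-type replicate 4 together, erythroid targets had 3 calls and all genes 408. Erythroid targets had 3 also with a filter at 5 and with values under 4 set at 4, and partners had 5 with the probe set of smallest p. Leaving out 1 array at a time gave 0 to 5, 2 to 6, 0 to 4 and 87 to 1074 calls; the lowest count of each was without transgenic replicate 2. A replicate block, fitted on the 3 numbers found in both groups, gave 0, 0, 0 and 3. Same-numbered arrays correlated at -0.09, -0.14 and -0.26 in their deviations from the group means, and arrays of unlike number at -0.18 to 0.26. With 3 arrays per group these values cannot decide whether the numbers pair the mice. The log2 differences kept their sign for every tested factor but Lyl1, whose -0.03 became 0.0035 with the Xist covariate, 0.0024 on the arrays with Xist, 0.0012 under the block and 0.075 without transgenic replicate 3 and wild-type replicate 4 together, and ran from -0.093 to 0.041 with 1 array left out (0.041 without transgenic replicate 3, 0.0012 without wild-type replicate 4). Without a filter or with only the Xist arrays Klf1, Nfe2 and Tal1 lost their calls, and with the Xist covariate Klf1 and Tal1 did. Over the alternatives Nfe2 and Tal1 passed in 15 of 20 each and Klf1 in 8 of 19, since the filter at 5 removes it; Gfi1b passed in 4 of 19 and Zfpm1 in 2 of 20. Some settings put fewer arrays or more probe sets in the fit, and the cause of the changed counts was not tested. Counts of the stem, platelet, paralogue and marker lists were not run under the alternatives. GCRMA values near the floor limit what can be said of Gata1, Gata2 and the wild-type levels of Klf1, Nfe2, Tal1 and Gfi1b.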
